A study of Mus musculus with 12 samples.

Results

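The Polycomb subunits described here are 10 genes, Ezh1, Ezh2, Eed, Suz12, Jarid2, Mtf2, Cbx2, Cbx6, Cbx7 and Cbx8, out of 18193 genes with at least 1 probe set annotated to a single symbol. They were chosen by name, with earlier results of these data known, and each was read from its brightest probe set over all 12 arrays. All 10 were bright enough to be tested, Cbx8 only with its 48 and 72 h arrays, as were 12629 of the 18193 genes. The cells were mouse embryonic stem (ES) cells of 129P2/OlaHsd genotype (E14, Ainv15) with a doxycycline-inducible transgene for Neurog1, a bHLH factor of the proneural family. They were uninduced cells in maintenance culture (0 h), or cells given 1 ug/ml doxycycline for 24, 48 or 72 h, with 3 Affymetrix arrays in each of the 4 groups. Every group carried the transgene, and per the labels' protocols the growth medium held serum, leukaemia inhibitory factor, puromycin and G418. Uninduced cells were taken at 0 h only, so Neurog1, doxycycline and days in culture cannot be told apart. The labels call the arrays biological replicates and do not say whether cultures were separate, so p-values measure the spread between these arrays.

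Polycomb group proteins keep developmental genes silent through 2 main complexes. PRC2 methylates a lysine in the tail of histone H3. Its core holds a methyltransferase, either EZH2 or its paralogue EZH1, together with EED, which binds the methylated tail, and SUZ12, the scaffold. JARID2 and the Polycomb-like protein MTF2 are accessory subunits that bring PRC2 to CpG-rich DNA. Canonical PRC1 carries a CBX protein whose chromodomain binds the PRC2 mark. In ES cells CBX7 is known as the main such protein, and CBX2 and CBX8 are known to gain in differentiating cells.

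Promoter windows from RefSeq (build GRCm38.p6, 250 bases before to 50 after an annotated start) were found for 9 of the 10 genes, 11 windows in all, and not for Cbx2. A pair of motif classes was searched on both strands. One is the E-box CANNTG, the class bound by proneural factors, and the other is the E2F-type site of S phase genes, in the 4 forms TTTCCCGC, TTTGGCGC, TTTCGCGC and TTTGCCGC. A window with several of the forms is counted once. Suz12 and Ezh2 are shown because they were the 2 members with an E2F-type site (capitals), at -219 and 4 bases from the start, and because their signals differed in course. Eed is shown as the member that was already lower at 24 h and Cbx8 as one that rose, each with an E-box in capitals. A second E-box of the Eed window, CAATTG at 27 bases from the start, lies beyond the stretch shown. The stretches shown are the first 250 bases of each window, or 270 for Ezh2, and lie at chr11:79992856-79993105 (plus strand) for Suz12, chr6:47595011-47595280 (minus) for Ezh2, chr7:89980977-89981226 (minus) for Eed and chr11:119040914-119041163 (minus) for Cbx8, printed 5′ to 3′ on the gene's strand.
Suz12: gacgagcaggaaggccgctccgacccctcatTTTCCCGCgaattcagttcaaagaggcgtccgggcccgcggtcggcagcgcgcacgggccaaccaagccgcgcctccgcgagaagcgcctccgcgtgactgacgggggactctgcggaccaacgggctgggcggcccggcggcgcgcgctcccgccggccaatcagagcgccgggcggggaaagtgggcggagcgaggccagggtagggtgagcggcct
Ezh2: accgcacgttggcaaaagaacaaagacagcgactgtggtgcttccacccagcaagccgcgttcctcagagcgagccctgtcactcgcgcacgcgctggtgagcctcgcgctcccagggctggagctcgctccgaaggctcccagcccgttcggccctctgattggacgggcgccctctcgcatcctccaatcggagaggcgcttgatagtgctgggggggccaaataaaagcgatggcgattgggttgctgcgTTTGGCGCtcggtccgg
Eed: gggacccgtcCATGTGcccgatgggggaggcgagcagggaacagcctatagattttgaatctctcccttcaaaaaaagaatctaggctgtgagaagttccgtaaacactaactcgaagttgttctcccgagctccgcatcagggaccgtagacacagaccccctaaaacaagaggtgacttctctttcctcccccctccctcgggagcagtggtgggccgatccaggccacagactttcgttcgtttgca
Cbx8: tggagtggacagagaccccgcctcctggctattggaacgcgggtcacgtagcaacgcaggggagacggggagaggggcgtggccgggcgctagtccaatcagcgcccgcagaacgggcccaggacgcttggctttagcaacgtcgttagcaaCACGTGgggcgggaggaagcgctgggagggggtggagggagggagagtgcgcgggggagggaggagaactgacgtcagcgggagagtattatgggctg

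An E-box stood in 7 of the 11 windows, against 72.3% of all 32851 windows of the same length. CAGATG, the E-box form often found for proneural factors, stood in 0 of the 11 and in 17.2% of all. An E2F-type site stood in 2 of the 11 and in 2.26% of all. These matches are letters in a window and say nothing of binding.

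One array, induced 24 h replicate 1 (the odd array), stood apart from the rest and touches every result below. It correlated with the other 24 h arrays at r = 0.826 and r = 0.804 across the tested genes, whereas all other pairs within a group reached 0.961 to 0.987. Its ratio of 3' to 5' signal for Pcx was 6.81, against 1.22 to 2.80 on the other arrays. The same ratio of Gapdh (0.862) and of Actb (1.42) lay within the range of the other 11 arrays, 0.658 to 0.864 and 1.34 to 1.54. Of the 10 members, 4 had their lowest signal of all 12 arrays there (Ezh2, Eed, Suz12, Mtf2) and 4 their highest (Ezh1, Cbx2, Cbx6, Cbx7). Over all tested genes these shares were 23.7% and 30.7%. The linear model shares 1 estimate of the spread, so this array also widens the errors at 48 and 72 h. Member values are therefore given with all 12 arrays and also without it where that changes the difference or the call, and whether the array differs for technical reasons was not tested. Neurog1 signal was 465 to 1152 in induced cells and 4.53 to 18.7 in uninduced cells.

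Marker lists were read as summed signal. That of 8 ES cell markers was 3047 to 3531 at 72 h, against 30769 to 31714 in uninduced cells, and that of 8 neuron markers was 22382 to 24420 against 3924 to 4326. At 24 h the neuron sum was 4293, 2902 and 1730 on replicates 1, 2 and 3. The sum hides a split within the list. Elavl4 and Map2 were higher, at 1.72 ± 0.43 and 1.57 ± 0.42 (limma, adjusted p = 0.0226 and 0.0312). Stmn2 and Nefl were lower, at -1.56 ± 0.28 and -1.27 ± 0.29 (limma, adjusted p = 0.00403 and 0.0159). Each kept its sign without the odd array. Of 8 fibroblast and feeder markers, 3 passed the filter on dim genes, and the summed signal of the list was 4718 to 6978 at 72 h, against 2281 to 2403. Only 1 of these 8 was above the array median on every array. Of the 3 tested, Vim was at 1.25 ± 0.21 and Thy1 at -1.29 ± 0.29 at 72 h (limma, adjusted p = 0.00047 and 0.00341), and the other was not called. Neural progenitor markers summed to 2600 to 4212 at 72 h, against 107 to 207. Endoderm markers summed to 187 to 514 at 72 h, against 80.3 to 158. Of these 6 markers, 0 were above the array median on every array. Those tested can pass the filter through arrays where they are high, so no count of calls is given. The part of these other cell types in the results was not tested. Mesoderm markers summed to at most 127 on any array, and trophoblast markers to at most 1139.9 except for 2632 on induced 24 h replicate 1. In bulk RNA, fewer cells of a type and less RNA per cell cannot be told apart.

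At 48 and 72 h the PRC2 subunit genes Eed and Jarid2 were lower than in uninduced cells and the PRC1 genes Cbx2 and Cbx8 were higher, in a limma fit of all 12 arrays. Without induced 24 h replicate 1, Suz12 and Mtf2 were lower too at both times, and Cbx6 at 48 h. Neither methyltransferase gene, Ezh2 or Ezh1, passed at any time in either fit. Differences are on the log2(signal + 16) scale, where a difference of 1 doubles signal + 16, with the standard error (SE) from limma. A call is a Benjamini-Hochberg adjusted p under 0.05 over all 12629 genes, two-sided, with n = 3 arrays a group.

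**Figure D1:**
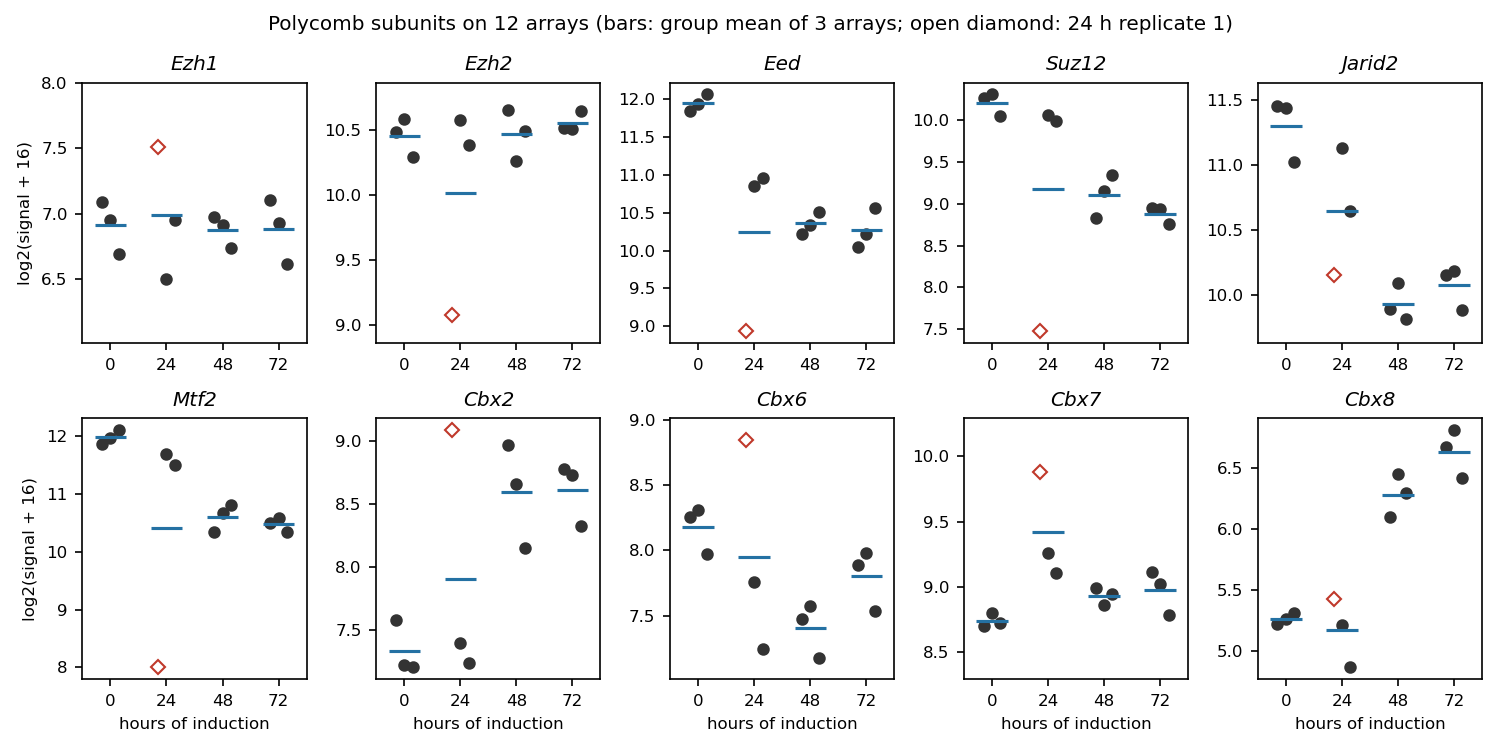
Log2(signal + 16) of each of the 10 subunit genes on the 12 arrays, against hours of induction (0 is uninduced), with a separate vertical scale in each panel. Dots are arrays, bars are means of 3 arrays, and the open diamond is induced 24 h replicate 1. Eed, Suz12, Jarid2 and Mtf2 lie lower at 48 and 72 h than at 0 h and Cbx2 and Cbx8 lie higher, whereas the Ezh1 and Ezh2 groups overlap with those at 0 h.

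Eed had signals of 3649, 3888 and 4252 in uninduced cells, 473, 1831 and 1974 at 24 h, 1179, 1278 and 1446 at 48 h, and 1041, 1171 and 1494 at 72 h. Every induced array lay below every uninduced array, and the 473 belongs to induced 24 h replicate 1. Relative to uninduced cells Eed fell by 1.70 ± 0.41 log2 units at 24 h (limma, adjusted p = 0.0208), by 1.59 ± 0.41 at 48 h (adjusted p = 0.00981) and by 1.67 ± 0.41 at 72 h (adjusted p = 0.00581). Without that array the 24 h difference was -1.04 ± 0.16 (limma, adjusted p = 0.000534). Eed was the only member called at 24 h with all arrays, and that call was lost on leaving out uninduced replicate 1, 2 or 3 (adjusted p = 0.0652, 0.0571 and 0.0741), or on fitting the 24 h and uninduced arrays alone (0.134). The other probe set of Eed was too dim to be tested. Averaging the 2 probe sets gave -0.82 at 24, 48 and 72 h, and no call at any of these times (limma, adjusted p = 0.132, 0.0643 and 0.0541).

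Jarid2, which helps PRC2 to find its targets in ES cells, had 2782, 2757 and 2061 in uninduced cells and 1123, 2228 and 1591 at 24 h. It had 936, 1080.1 and 886 at 48 h, and 1124, 1151 and 934 at 72 h. The 48 and 72 h arrays all lay below the uninduced ones, whereas the 24 h arrays overlapped them. Jarid2 was at -1.37 ± 0.25 at 48 h (limma, adjusted p = 0.001) and -1.22 ± 0.25 at 72 h (adjusted p = 0.00159), calls that held under all alternatives tried. At 24 h it was at -0.66 ± 0.25 (limma, adjusted p = 0.116), and it passed there without induced 24 h replicate 2 (adjusted p = 0.0365) and with the mean of its 3 probe sets (0.0385). On leaving out the odd array it was at -0.41 ± 0.18 at 24 h (limma, adjusted p = 0.124), and the later calls stayed (adjusted p = 1.36e-05 and 2.41e-05). All 3 probe sets fell at both later times, and the dimmest of them was at -1.92 at 48 h and -2.18 at 72 h.

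Suz12 had 1214, 1255 and 1049.6 in uninduced cells, 161, 1055 and 1002 at 24 h, 439, 552 and 635 at 48 h, and 479.8, 473 and 416 at 72 h. The 161 is induced 24 h replicate 1, and the other 24 h arrays lay just above and just below the lowest uninduced array. All 48 and 72 h arrays lay below all uninduced arrays. With all 12 arrays Suz12 did not pass, at -1.10 ± 0.52 at 48 h (limma, adjusted p = 0.121) and -1.33 ± 0.52 at 72 h (adjusted p = 0.056, or 0.0443 with the replicate number as a block). Leaving out any of the 24 h arrays brought the 72 h call (limma, adjusted p = 0.0388 without replicate 2 and 0.0387 without replicate 3). So did quantile normalization (limma, adjusted p = 0.0490) and a pseudocount of 64 (0.0435). Without induced 24 h replicate 1 the same differences had an SE of 0.15 and passed (limma, adjusted p = 3.33e-05 at 48 h and 4.54e-06 at 72 h). At 24 h Suz12 was then at -0.18 ± 0.16 (limma, adjusted p = 0.466). All 6 of its tested probe sets had negative differences at both later times, and without that array 4 were called at 48 h and 5 at 72 h. The probe set used is 1 of the kind (suffix _s_at) that can match more than 1 transcript, as are those used for Jarid2 and Cbx6.

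Mtf2, a Polycomb-like protein that binds unmethylated CpG-rich DNA, had 3700.1, 3994 and 4385 in uninduced cells and 240.2, 3308 and 2898 at 24 h. It had 1278, 1604 and 1773 at 48 h and 1437, 1523 and 1274 at 72 h. The 240.2 on induced 24 h replicate 1 was below all other arrays, and no induced array reached the uninduced range at any time. The log2 difference was -1.38 ± 0.70 at 48 h (limma, adjusted p = 0.149) and -1.50 ± 0.70 at 72 h (adjusted p = 0.102), neither a call. Without that array the SE was 0.14 and both passed (limma, adjusted p = 3.15e-06 and 9.9e-07), while the 24 h value was -0.37 ± 0.15 (adjusted p = 0.101). Of 5 tested probe sets 4 were lower at both later times, and without the odd array those 4 were called. The remaining, dim probe set was at 0.03 and 0.05.

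Ezh2 had 1415, 1515 and 1239.8 in uninduced cells, 523, 1508 and 1322 at 24 h, 1590.25, 1212 and 1422 at 48 h, and 1446, 1435 and 1588 at 72 h. Apart from the 523 on induced 24 h replicate 1, all signals lay between 1212 and 1590.25. Without that array the differences were 0.03 at 24 h (95% interval -0.29 to 0.34), 0.01 at 48 h (-0.27 to 0.30) and 0.10 at 72 h (-0.18 to 0.39). With all arrays they were -0.44 ± 0.32, 0.01 ± 0.32 and 0.10 ± 0.32 (limma, adjusted p = 0.425, 0.979 and 0.822). Ezh2 had a single probe set.

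Ezh1, the paralogue known from non-dividing cells, had 120.3, 108 and 87.5 in uninduced cells, 166, 74.6 and 108 at 24 h, 109.97, 105 and 90.8 at 48 h, and 122, 106 and 81.7 at 72 h. The groups overlapped at every time. Its difference was 0.07 ± 0.26, -0.04 ± 0.26 and -0.03 ± 0.26 at 24, 48 and 72 h (limma, adjusted p = 0.888, 0.937 and 0.939), and the 95% interval at 72 h was -0.60 to 0.54. On leaving out the odd array the 24 h difference was -0.19 ± 0.22 (limma, adjusted p = 0.601). With quantile normalization, which moved the median of all genes by -0.14 at 48 h and -0.16 at 72 h, Ezh1 was at -0.39 and -0.41 and Ezh2 at 0.25 and 0.37, still without a call.

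Cbx2, a PRC1 chromodomain protein that compacts chromatin, had 175, 133 and 131 in uninduced cells, 526, 152 and 134 at 24 h, 484, 388 and 267 at 48 h, and 422, 407 and 305 at 72 h. The 48 and 72 h arrays all lay above the uninduced ones, and at 24 h only the odd array did so clearly. Cbx2 rose by 1.26 ± 0.41 at 48 h (limma, adjusted p = 0.0323) and 1.28 ± 0.41 at 72 h (adjusted p = 0.0255). Both calls were lost with quantile normalization and on leaving out uninduced replicate 2 or 3 (highest adjusted p = 0.122 at 48 h and 0.0814 at 72 h over all alternatives). Leaving out uninduced replicate 1 or induced 48 h replicate 1 or 2 also ended the 48 h call, and leaving out induced 72 h replicate 1 or 2 the 72 h call. Without induced 24 h replicate 1 the SE was 0.21 (limma, adjusted p = 0.00022 and 0.000152), and 24 h was at -0.02 ± 0.23. Its second probe set was at 1.10 and 0.94 and was called at both times.

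Cbx8 was dim, with 21.3, 22.5 and 23.8 in uninduced cells and 27.1, 21.2 and 13.3 at 24 h, near the array medians of 19.5 to 32.8. It had 52.5, 71.6 and 62.6 at 48 h and 86.2, 96.3 and 69.4 at 72 h. The 48 and 72 h arrays lay above all arrays of both earlier groups. Cbx8 rose by 1.01 ± 0.22 at 48 h (limma, adjusted p = 0.00321) and 1.37 ± 0.22 at 72 h (adjusted p = 0.000293). At 24 h it was at -0.10 ± 0.22 (limma, adjusted p = 0.819), or -0.22 ± 0.23 without the odd array (0.532), and the later calls stayed without it (0.000937 and 6.75e-05). The size depends on the pseudocount, since with 1 in place of 16 the 72 h difference was 1.84 and with 64 it was 0.77. Averaging in its second, untested probe set gave 0.42 at 48 h and ended that call (limma, adjusted p = 0.0769), whereas the 72 h call stayed, at 0.81.

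Cbx6 and Cbx7 moved less. Cbx6 had 289, 302 and 235 in uninduced cells, 445, 199.97 and 136 at 24 h, 161, 175 and 129 at 48 h, and 221, 236 and 169 at 72 h. Its 48 h arrays lay below all uninduced arrays, and its 72 h arrays overlapped them by 1 array. Cbx6 was at -0.77 ± 0.34 at 48 h (limma, adjusted p = 0.1, or 0.00391 without induced 24 h replicate 1) and at -0.38 ± 0.34 at 72 h (adjusted p = 0.408, or 0.105). The 48 h fall also passed with quantile normalization, at -0.9997 (limma, adjusted p = 0.0394), and by its second probe set, at -0.94 (adjusted p = 0.0492). At 24 h the value was -0.23 ± 0.34, and -0.68 ± 0.21 without the odd array (limma, adjusted p = 0.0358).

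Cbx7 had 401, 429 and 407 in uninduced cells, 928, 598 and 535 at 24 h, 493, 449 and 478 at 48 h, and 538, 505 and 425 at 72 h. All 24 h arrays lay above the uninduced ones. The 24 h difference was 0.68 ± 0.23 (limma, adjusted p = 0.0856), and 0.44 ± 0.14 without the odd array (adjusted p = 0.0408). It also passed without induced 24 h replicate 3, at 0.83 (limma, adjusted p = 0.0494). At 48 and 72 h it was 0.19 ± 0.23 and 0.23 ± 0.23 (limma, adjusted p = 0.561 and 0.45), with a 95% interval of -0.26 to 0.73 at 72 h. Its second tested probe set was at -0.01, 0.03 and 0.54 at 24, 48 and 72 h.

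**Figure D2:**
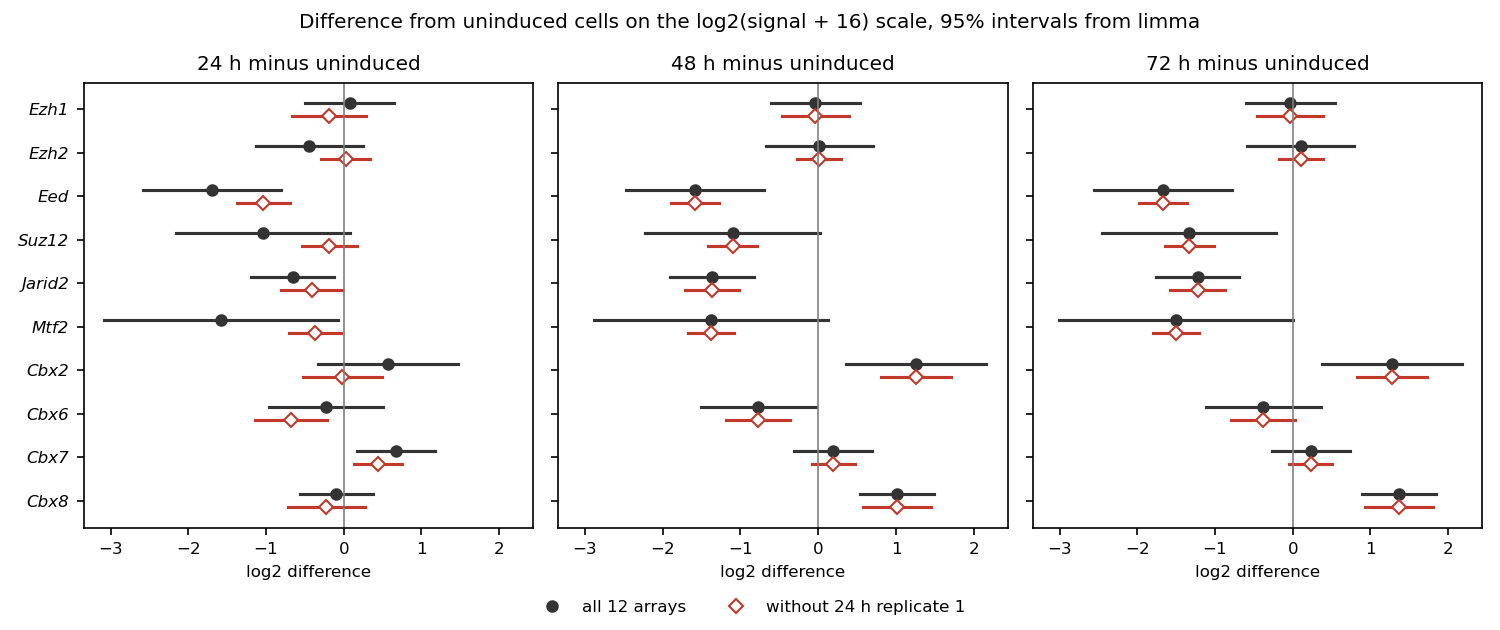
Log2 difference from uninduced cells (horizontal, log2(signal + 16) scale) for each subunit gene at 24, 48 and 72 h, with 95% intervals from limma. Filled circles use all 12 arrays and open diamonds leave out induced 24 h replicate 1. At 48 and 72 h both fits give the same differences but the intervals of Suz12, Mtf2 and Eed are narrower without that array, for Mtf2 at 72 h from -1.80 to -1.20 against -3.01 to 0.00.

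Counts over the members are read against all tested genes. At 24 h 0 members were higher and 1 lower, where 7.36% of all tested genes were higher and 2.76% lower. At 48 h 2 of 10 were higher and 2 lower, against 21.1% and 13% of all genes. At 72 h again 2 were higher and 2 lower, against 23.8% and 17.5%. The shares of members called, 20% each way at the later times, are near those of all genes. Cbx8, which is among those higher at 48 and 72 h, passed the filter on dim genes only with arrays of those times. Without induced 24 h replicate 1, 1 member was higher and 2 lower at 24 h (14.8% and 8.19% of all genes), 2 higher and 5 lower at 48 h (31% and 22.5%), and 2 higher and 4 lower at 72 h (32.3% and 26.6%). With quantile normalization 1 was higher and 3 lower at both later times. In that setting 4063 of the 12629 tested genes were called at 48 h and 5161 at 72 h, both directions together. The median member difference was -0.33, -0.40 and -0.20 at 24, 48 and 72 h, against 0.10, 0.10 and 0.08 over all tested genes. It was -0.70 at 48 h and -0.50 at 72 h with quantile normalization, and -0.21 at 24 h without the odd array.

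The change between 24 and 48 h shows which members moved on the second day. With all arrays Cbx8 alone was called, higher at 48 h by 1.11 ± 0.22 (limma, adjusted p = 0.00412), where 9.37% of all genes were higher and 6.87% lower. Jarid2 was at -0.71 ± 0.25 (limma, adjusted p = 0.0683, or 0.0452 with the replicate number as a block). Without induced 24 h replicate 1, 6 members were called, 2 of them higher and 4 lower, against 12.9% and 10.2% of all genes. Mtf2 was then at -1.002 ± 0.15 (limma, adjusted p = 0.000501), Jarid2 at -0.95 ± 0.18 (adjusted p = 0.00204), Suz12 at -0.92 ± 0.16 (adjusted p = 0.00127) and Eed at -0.55 ± 0.16 (adjusted p = 0.023). Cbx2 rose by 1.28 ± 0.23 (limma, adjusted p = 0.00161) and Cbx8 by 1.24 ± 0.23 (adjusted p = 0.00165). With all arrays Eed and Mtf2 had the opposite sign, 0.11 ± 0.41 and 0.20 ± 0.70. In these comparisons 24 h rests on 2 arrays, which are assumed to vary like the other groups.

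Between 48 and 72 h 0 members were called in limma, where 0.546% of all genes were higher and 0.135% lower. The member differences ran from -0.23 for Suz12 to 0.39 for Cbx6. All 10 had an unadjusted p above 0.05 in limma, and array weights, the other weighting tried, called 2 (Cbx6 and Cbx8). With these weights 2381 of the 12629 tested genes were called, against 86 in the reported fit.

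**Figure D3:**
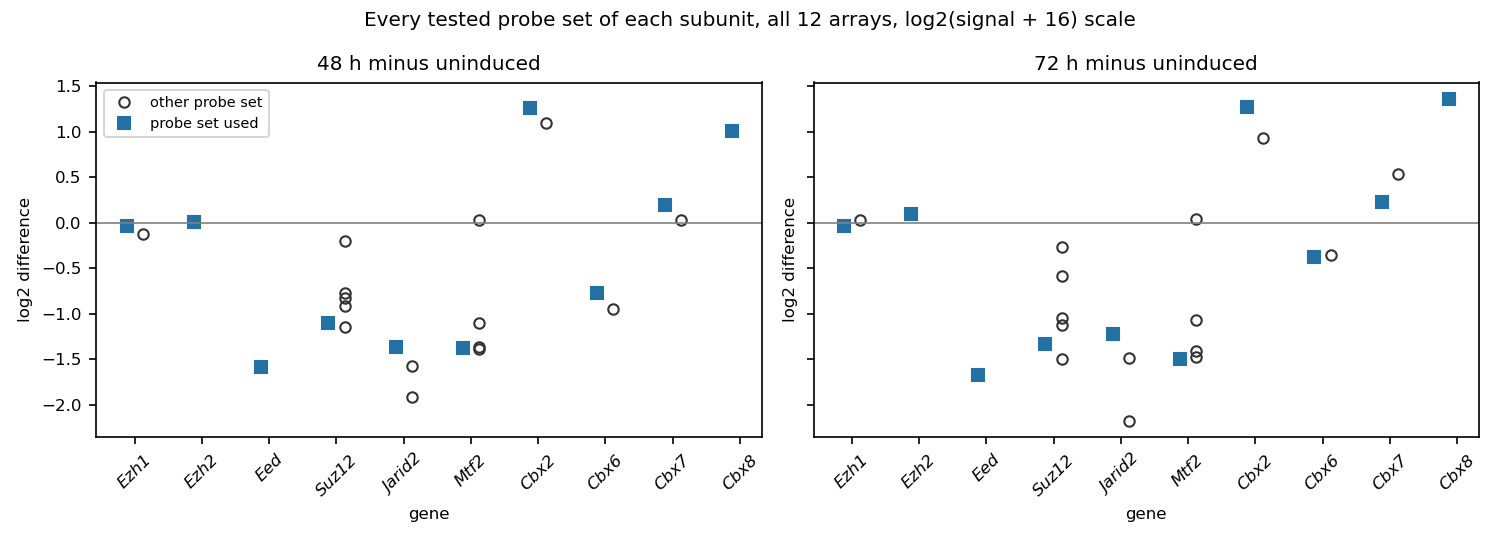
Log2 difference from uninduced cells at 48 and 72 h (vertical, log2(signal + 16) scale) for all 25 tested probe sets of the 10 genes. Blue squares are the probe sets used and open circles the others. The probe sets of Suz12, Jarid2, Cbx2 and Cbx6 lie on 1 side of 0 within each gene, and 1 of 5 Mtf2 probe sets lies near 0.

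The falling members also followed each other from array to array. Over the 11 arrays without induced 24 h replicate 1, Suz12 and Mtf2 correlated at r = 0.978, Jarid2 and Mtf2 at 0.932 and Eed and Mtf2 at 0.915, which describes 4 groups of arrays that share the same time course. Over the same arrays Cbx2 and Mtf2 were at -0.934 and Cbx8 and Mtf2 at -0.875. Among all tested genes, the patterns most like that of Eed over the 12 arrays were those of Pno1, Brix1 and Cacybp (r = 0.983 to 0.987). Mtf2 was most like Cep192, Sub1 and Kif20b (0.989 to 0.992), Jarid2 most like Panct2, Rnf125 and L1td1 (0.966 to 0.969), and Cbx8 most like Apcdd1, Sema6a and Kcnd3 (0.979 to 0.982). This ranking included the odd array. Without that array, r with the same genes was 0.976 to 0.979 for Eed and 0.970 to 0.978 for Mtf2. For Jarid2 it was then 0.966 to 0.969, and for Cbx8 0.979 to 0.982.

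Other genes of the pathway were counted in fixed lists, chosen with earlier results of these data known. The counts are to be read against the shares of all tested genes. These were 7.36% higher and 2.76% lower at 24 h, 21.1% and 13% at 48 h, and 23.8% and 17.5% at 72 h. Without the odd array they were 14.8% and 8.19%, 31% and 22.5%, and 32.3% and 26.6%. With all arrays the counts of the PRC2 genes lie near these shares. Of 8 further PRC2 genes, 1 rose and 2 fell at 48 h and likewise at 72 h, with 0 called at 24 h (2 at an unadjusted p under 0.05, and 2 called without induced 24 h replicate 1). On leaving out that array 2 rose and 4 fell at both later times. Epop, an accessory subunit of ES cell PRC2, fell by 2.04 ± 0.41 at 48 h and by 2.61 ± 0.41 at 72 h (limma, adjusted p = 0.00207 and 0.000259). Phf19, another Polycomb-like protein, was at -1.18 ± 0.42 and -1.25 ± 0.42 (limma, adjusted p = 0.0447 and 0.0296), a 48 h call lost with a pseudocount of 1 (0.0828). Lcor, whose locus also encodes an accessory PRC2 protein, rose by 2.23 ± 0.50 and 3.42 ± 0.50 (limma, adjusted p = 0.00426 and 0.000162). The list median was -0.53 at 72 h, or -0.31 with quantile normalization.

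Of 9 further canonical PRC1 genes measured, 2 rose at 24 h and 0 fell, 4 rose and 1 fell at 48 h, and 5 rose and 1 fell at 72 h. With quantile normalization 2 rose at 48 h and 3 at 72 h, with 1 and 2 lower, where 4063 and 5161 of the 12629 tested genes were called. On leaving out the odd array 2, 4 and 5 rose and 0, 1 and 2 fell at 24, 48 and 72 h. The polyhomeotic genes moved apart. Phc2 rose by 2.99 ± 0.44 at 24 h and by 3.18 ± 0.44 at 72 h (limma, adjusted p = 0.00104 and 0.000103), whereas Phc1 was at -1.43 ± 0.35 at 48 h and -1.64 ± 0.35 at 72 h (adjusted p = 0.00665 and 0.00216). Bmi1, the RING-finger partner that helps PRC1 to ubiquitinate histone H2A, rose by 1.47 ± 0.40 at 24 h and 2.92 ± 0.40 at 72 h (limma, adjusted p = 0.0365 and 0.000104). At 24 h, without the odd array, Phc2 was at 2.40 and Bmi1 at 2.10 (limma, adjusted p = 8.22e-05 and 2.06e-06). The list median was 0.95 at 72 h, against 0.08 over all genes, or 0.61 against -0.09 with quantile normalization.

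Of 14 genes of variant PRC1, which lacks CBX proteins, 2 rose and 1 fell at 24 h, 6 rose and 3 fell at 48 h, and 7 rose and 3 fell at 72 h. On leaving out the odd array 4, 7 and 7 rose and 3, 4 and 5 fell at these times. Auts2, which turns its complex towards gene activation in neurons, rose by 1.76 ± 0.41 at 24 h and 3.72 ± 0.41 at 72 h (limma, adjusted p = 0.0178 and 1.82e-05). Yaf2, which binds the RING proteins of the complex, rose by 1.45 ± 0.28 and 3.23 ± 0.28 (limma, adjusted p = 0.00533 and 2.14e-06). Pcgf6 fell by 0.80 ± 0.22 at 24 h (limma, adjusted p = 0.0354), and L3mbtl2 by 1.34 ± 0.32 at 72 h (adjusted p = 0.00441). Wdr5, also part of the Trithorax-type methyltransferases, fell by 1.51 ± 0.27 at 72 h (limma, adjusted p = 0.00074).

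Of 9 genes that oppose Polycomb (H3 demethylases, PR-DUB subunits and Trithorax-type methyltransferases), 0 were called at any time in the limma fit of all arrays, and 1 had an unadjusted p under 0.05 at each of 24, 48 and 72 h. The demethylase gene Kdm6b was called at 48 h without induced 24 h replicate 1, at 1.47 (limma, adjusted p = 0.0089), and was at 1.34 at 72 h (adjusted p = 0.0132). Kdm6a was then called at 24 h (0.70) and Asxl2 at 72 h (-0.65), and these 3 are named after their values were seen. With array weights 1 of the 9 was higher at 48 h, and 5 were higher and 1 lower at 72 h. That weighting called 6939 of the 12629 tested genes at 48 h and 8174 at 72 h, both directions together.

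**Figure D4:**
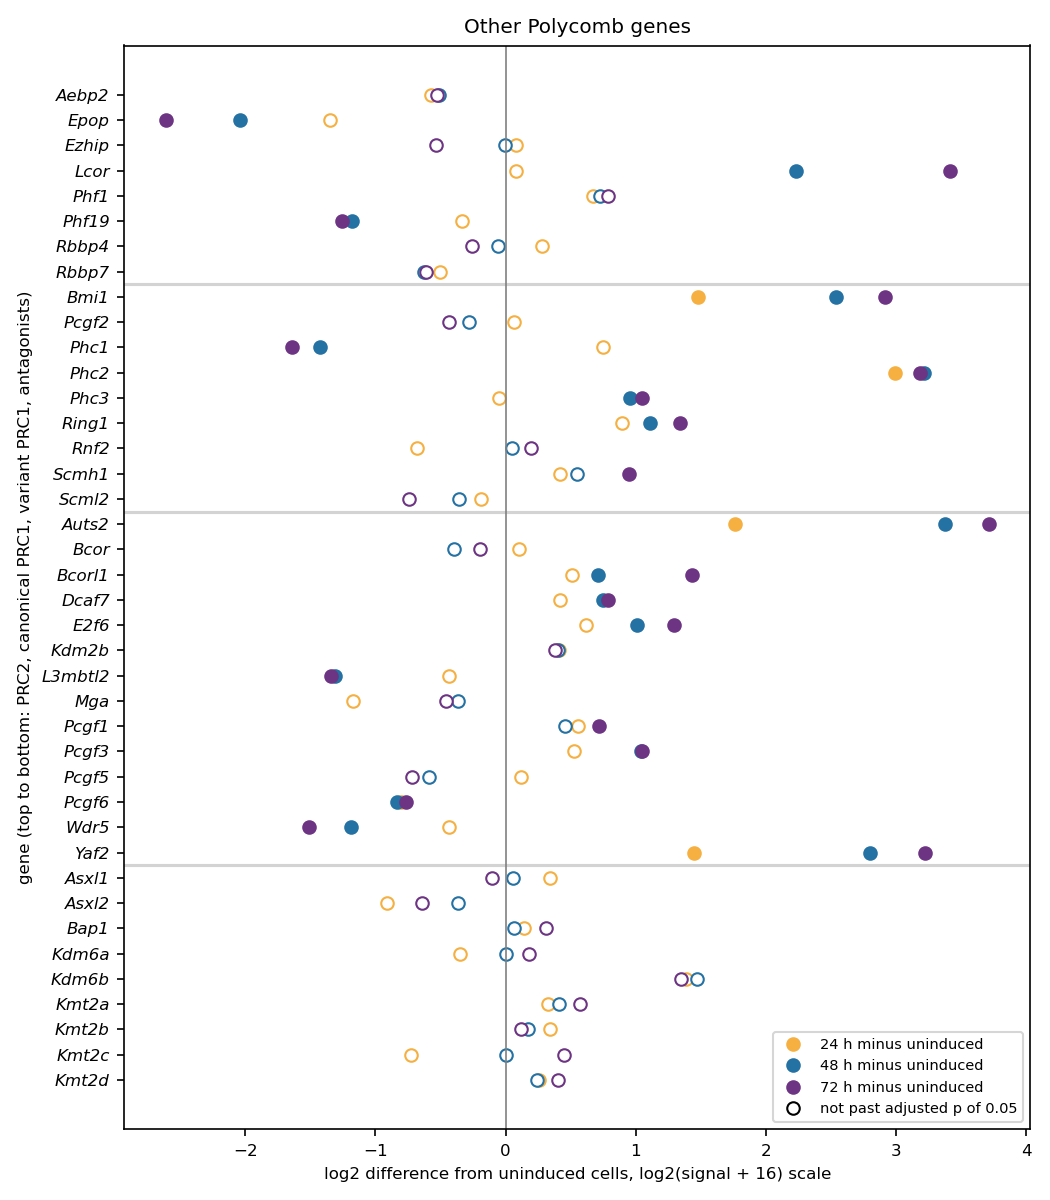
Log2 difference from uninduced cells (horizontal, log2(signal + 16) scale) at 24, 48 and 72 h for 40 other Polycomb genes in 4 blocks, with all 12 arrays. Filled circles passed an adjusted p of 0.05 in limma and open circles did not. Auts2, Lcor, Yaf2, Phc2 and Bmi1 lie farthest to the right, and Epop and Phc1 farthest to the left.

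Developmental regulators known as Polycomb targets in ES cells were set beside the subunits. Of 27 measured, 20 passed the filter on dim genes and 2 were above the array median on all arrays. A gene that is dim in uninduced cells passes only through the arrays where it is high, so no count over the list is given. Isl1, a LIM homeodomain factor of sensory and motor neurons, rose by 5.38 ± 0.31 at 48 h, and Irx3 by 4.64 ± 0.37 (limma, adjusted p = 2.34e-07 and 2.06e-06). They were the 2 largest called rises of the list at that time, and the limit from the filter may apply to them. From 24 to 48 h the largest called rises were those of Isl1, by 3.56 ± 0.31, and Pax3, by 2.88 ± 0.29 (limma, adjusted p = 2.72e-05 and 6.32e-05). Over that interval Wt1 fell by 1.62 ± 0.35 and Hoxd13 by 1.32 ± 0.25 (limma, adjusted p = 0.00691 and 0.00303). The limit from the filter may apply to these genes as well. Part of the list belongs to the neurogenic programme, and the part of the Polycomb subunits in these rises was not tested.

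S phase genes, a list also chosen with earlier results known, moved over the same interval. Of 24 tested, 1 fell at 24 h, 15 at 48 h and 17 at 72 h, against 2.76%, 13% and 17.5% of all genes. Of the 24, 0 rose at any of these times. Leaving out induced 24 h replicate 1, the falls were 3, 18 and 20 (8.19%, 22.5% and 26.6% of all genes), and 1 S phase gene rose, at 48 h. Their summed signal was 26074 to 28819 at 48 h and 22040 to 30212 at 72 h, against 46467 to 51847 in uninduced cells. On induced 24 h replicate 1 it was 57460, against 40259 and 41549 on the other 24 h arrays. The part of a change in cycling in the fall of the PRC2 genes was not tested.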

How the data were processed

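The authors deposited 1 linear intensity for each probe set on each array, MAS5 output per the submitters' processing notes. Sources used here give no version or settings. The 2% trimmed mean was 150 on each of the 12 arrays. Of 45101 probe sets, 34945 had 1 gene symbol in the platform annotation and 31 belonged to the members, 25 of them tested. All 10 members matched by Entrez identifier in GRCm38.p6.

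Signals were transformed as log2(signal + 16), and the brightest probe set stood for a gene. Genes above the array median on at least 3 arrays were tested. One model with 4 group terms was fitted to 12 arrays with limma 3.58.1 in R 4.3.3 (eBayes with trend) and checked on simulated data. The members and lists were chosen with earlier results of these data known. All members are named, with Neurog1, up to 2 rises and 2 falls per list and comparison, and the 3 genes most like each of 4 members.

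Deviations of same-numbered arrays from their group means correlated at 0.0467 to 0.567, over 0.1 in 16 of 18 pairs. The number was a block in an alternative. The number of arrays limits the precision.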

Additional observations from a re-analysis of the deposited data

Results flagged for a closer look

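Against uninduced cells Cbx8 was at -0.10 ± 0.22 at 24 h, not a call, and at 1.01 ± 0.22 at 48 h. The difference between these times, tested directly, was 1.11 ± 0.22 (limma, adjusted p = 0.00412), with all 3 arrays at 48 h above all 3 at 24 h. Both times share the uninduced arrays.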

How the results depend on the processing

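Of 1090 member values recomputed, 1031 kept their status, called or not called, 19 lost a call and 36 gained one. Another 4 changed sign and gained a call. Most of the 1031 were not calls in the reported fit either, where 1, 4, 4, 1 and 0 of 10 members were called in the 5 comparisons. The reversals were Eed and Mtf2 for 48 h against 24 h, at -0.51 and -0.93 with array weights and at -0.55 and -1.002 without induced 24 h replicate 1 (0.47 and 0.85 at the highest, on leaving out replicate 3 and replicate 2). Members called ran from 0 to 3 at 24 h (reported: 1), 3 to 7 at 48 h (reported: 4), 3 to 6 at 72 h (reported: 4), 1 to 6 for 48 h against 24 h (reported: 1) and 0 to 0 for 72 h against 48 h on leaving out each array. All genes called ran from 668 to 2900 (reported: 1279), 3173 to 6750 (reported: 4306), 4039 to 7432 (reported: 5213), 1129 to 2925 (reported: 2050) and 25 to 469 (reported: 86). With array weights, whose estimation stopped before convergence, members called were 7 at 48 h, 6 for 48 h against 24 h and 2 for 72 h against 48 h, and all genes 2231, 6939, 8174, 3246 and 2381. Fitting only the arrays of the 2 groups called 0 members at 24 h and 7 at 48 h, and 337, 6475, 981 and 421 genes at 24 h, 48 h, 48 h against 24 h and 72 h against 48 h. The mean of all probe sets called 2 members at 48 h and 2 for 48 h against 24 h, and 144 genes for 72 h against 48 h. There a pseudocount of 1 called 19 genes, 64 called 226 and the filter at percentile 75 called 50. That filter called 0 members for 48 h against 24 h. The replicate block called 2 there and changed, of the member calls, those of Jarid2 there and Suz12 at 72 h. Requiring signal above the median on all 3 arrays of a group, chosen after seeing the data like the fit of every probe set, left every count of members called unchanged. No gene named from the lists changed direction with quantile normalization, pseudocounts of 1 and 64 or array weights.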
